A study of Mus musculus with 7 samples.

Results

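The genes described here are the mouse genes for the large families of xenobiotic-metabolising enzymes, taken by symbol: cytochrome P450 families 1 to 4 (Cyp1, Cyp2, Cyp3 and Cyp4), UDP-glucuronosyltransferases (Ugt1 and Ugt2) and the alpha, mu, omega, pi and theta glutathione S-transferases (Gsta, Gstm, Gsto, Gstp and Gstt). The rule found 121 members among the 30406 genes shared by all libraries. Of these, 94 had at least 1 unique molecular identifier (UMI, a tag that counts 1 captured RNA molecule) in a kept cell, 72 had at least 3, 33 had at least 100 and 27 had none. By its symbol the rule also takes in Cyp4x1os, an antisense transcript at Cyp4x1 that codes for no enzyme (21 UMIs), and the other 120 members are annotated as protein coding.

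The cells came from dissociated noses of mouse embryos at embryonic day 14.5, frozen after papain and collagenase digestion, thawed and captured with a droplet method that counts the 3′ ends of transcripts. There were 7 libraries. The 5 WT libraries came from CD1 IGS embryos, and the 2 Prokr2Cre libraries came from 1 nose of a ProKR2iCre/R26tdTomato embryo, in which a Cre recombinase placed at the Prokr2 gene switches on the red protein tdTomato. Its Cre allele is B6;SJL-Prokr2em1(cre)Cfe and its reporter allele Gt(ROSA)26Sortm14(CAG-tdTomato)Hze/J. The labels name no treatment. That Prokr2Cre nose gave 1 sorted and 1 unsorted data set, and the labels do not say which library is which, so the 2 are given one by one and enter no test. The labels name 5 CD1 noses without tying each to a library, so p-values measure only the spread between captures, some of which may be technical.

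WT replicate 3 shared 7386 cell barcodes with WT replicate 4 and was left out; no other pair shared more than 34. Total UMIs per library ran from 16773781 to 89800259. Kept cells had 500 genes or more and no more than 10% of UMIs from mitochondrial genes: 31465 over the 6 libraries used and 28565 in the 4 WT captures, at a median of 5126.5 to 13692 UMIs per cell. WT 1 was the only WT capture whose file header names Cell Ranger 6.0.1, and it held nearly all ciliated-like cells.

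Enzymes of this kind work in 2 steps. P450 enzymes, fed electrons by the reductase Por, add an oxygen atom to fat-soluble chemicals and also to steroids, retinoids and fatty acids. Transferases then couple the product to glutathione (Gst genes) or glucuronic acid (Ugt genes), which makes it water-soluble and ready for export. The adult olfactory mucosa is one of the tissues richest in these enzymes outside the liver. There they sit mostly in the sustentacular cells, the columnar supporting cells around the olfactory neurons, and in Bowman's glands, and they clear odorants and inhaled toxicants.

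Cells were sorted into classes by markers, with at least 3 markers of the class detected, and every class is called "-like" for that reason. Over 6 libraries the gates gave 914 sustentacular-like, 708 simple nasal epithelium-like, 998 basal and stratified epithelium-like, 76 ciliated-like, 519 olfactory progenitor-like, 527 olfactory neuron-like and 21089 mesenchyme-like cells, with smaller groups of other types. These markers chose the cells, so their shares describe the classes and do not test the names. Ermn had a UMI in 72.3% of sustentacular-like cells against 1.44% of all others, Sox2 in 88.1% and Otx2 in 83.2%. Sec14l3 was found in 8.32% against 0.304%. Krt19 marked 62.9% of the simple nasal cells against 2.6% of all others, and Gabrp 7.06% against 0.198%. Krt5 marked 89.9% of the basal cells against 1.81%. Krt4 and Krt13, also markers of the basal and stratified class, were found in only 1.3% and 1.5% of its cells. The line between the sustentacular-like and simple nasal classes was less sharp: 89 sustentacular-like and 97 simple nasal cells lay near it, and the simple nasal cells held a median of 2 of 6 sustentacular markers beside 3 of 6 of their own in the step that parts the 2. Over the full lists the sustentacular-like cells held a median of 7 of 11 simple nasal markers beside 6 of 9 of their own. When cells were clustered instead, 308 of the 708 simple nasal cells fell in clusters of that name, 216 in basal and 145 in sustentacular clusters, while 713 of the 914 sustentacular-like cells fell in their own. No enzyme gene was used to sort cells.

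The sustentacular-like cells carried the most xenobiotic enzyme RNA of the tested classes. All 121 members together gave 8641, 5197, 3905.0 and 5911 CPM (counts per 1000000 UMIs of the class in that library) in WT 1, 2, 4 and 5, and 2986 and 3387 in Prokr2Cre 1 and 2. The simple nasal cells gave 3258, 3429, 1337 and 2081 CPM, so that within each capture they lay below the sustentacular-like cells. Olfactory progenitor-like cells reached 1006 ± 208.5 CPM and neuron-like cells 835.8 ± 379.8 (SD, n = 4 captures). Mesenchyme-like cells held 572.0 ± 113.1 CPM, basal cells 534.6 ± 101.3, immune-like cells 296.8 ± 54.5 and endothelial-like cells 236.7 ± 50.1. The 4 sustentacular-like captures did not overlap with any capture of another tested class. Since fewer transcripts of other genes raise CPM as well, a share of a cell's RNA and an amount of RNA per cell cannot be told apart here.

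**Figure D1:**
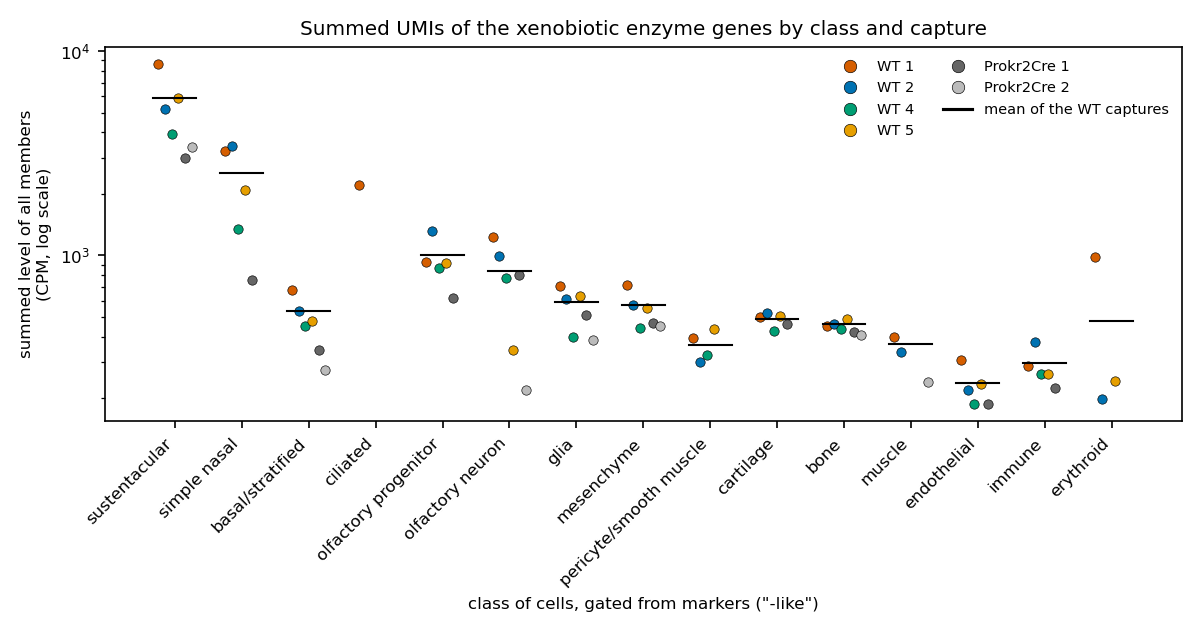
Summed level of the 121 enzyme genes in each cell class, in CPM on a log axis; each point is 1 library and the bars give the mean of the WT captures. The sustentacular-like captures lie highest, from 3905.0 to 8641 CPM in WT, followed by the simple nasal cells.

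The enzyme pool was mostly glutathione transferase. Of 251151 member UMIs in all kept cells, 60.4% were from the Gstm family and 17.85% from Gsta, then 7.06% from Gsto, 3.42% from Gstp and 2.74% from Gstt. P450 genes gave less: 4.72% of the pool was Cyp2, 3.02% Cyp4, 0.365% Cyp1 and 0.0187% Cyp3. Glucuronosyltransferases gave 0.381% for Ugt2 and 0.0315% for Ugt1, and these counts may be too low, since the Ugt1 genes, like Ugt2a1 and Ugt2a2, share their 3′ ends and reads that fit several genes may not have been counted. UMIs at the 3′ end count transcripts and are not scaled by gene length.

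Tests used raw UMIs summed per WT capture and class, with edgeR's quasi-likelihood test blocked on the capture, and p-values were adjusted by Benjamini-Hochberg over all 14428 genes tested, with a threshold of 0.05. A total of 28 of the 121 members passed the filter on low counts. The filter works by class, so a gene can pass through the few classes where it is high. Medians and counts over the 28 therefore describe the genes that passed and do not test the families. Log2 fold changes are given ± SE, where the SE is the size of the fold change divided by the square root of edgeR's F statistic. A mean of several classes is the mean of their log levels with equal weight, so classes with little of a gene pull it down. A class can be called higher than that mean while other classes hold far more. Gstm1 was called higher in neuron-like cells, at a mean of 321.2 CPM, though simple nasal cells held 1145 and sustentacular-like cells 3761. Where 1 class of such a mean has no UMI of a gene, the fold depends on the small count that the fit adds. A lower level than that mean then cannot be tested. This left 47 of 448 member tests void (standard error over 10), from 0 to 7 of the 28 per comparison, and 1.84% to 11% of all genes. Without WT 1, Cyp1b1, Cyp2d22, Cyp2j9, Cyp4a12b, Cyp4f39 and Gsto2 fell under the count filter, so none of their calls has a value without that capture. The same holds for Cyp4a12b without WT 2 or WT 4 and for Cyp2w1 without WT 4. Across the 28, the median log2 fold change of sustentacular-like cells against the mean of the simple nasal and basal cells was 0.33, beside 0.01 over all genes tested. In that comparison 12 members were higher (background 12.1% of all genes tested) and 6 were lower (background 8.86%).

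**Figure D2:**
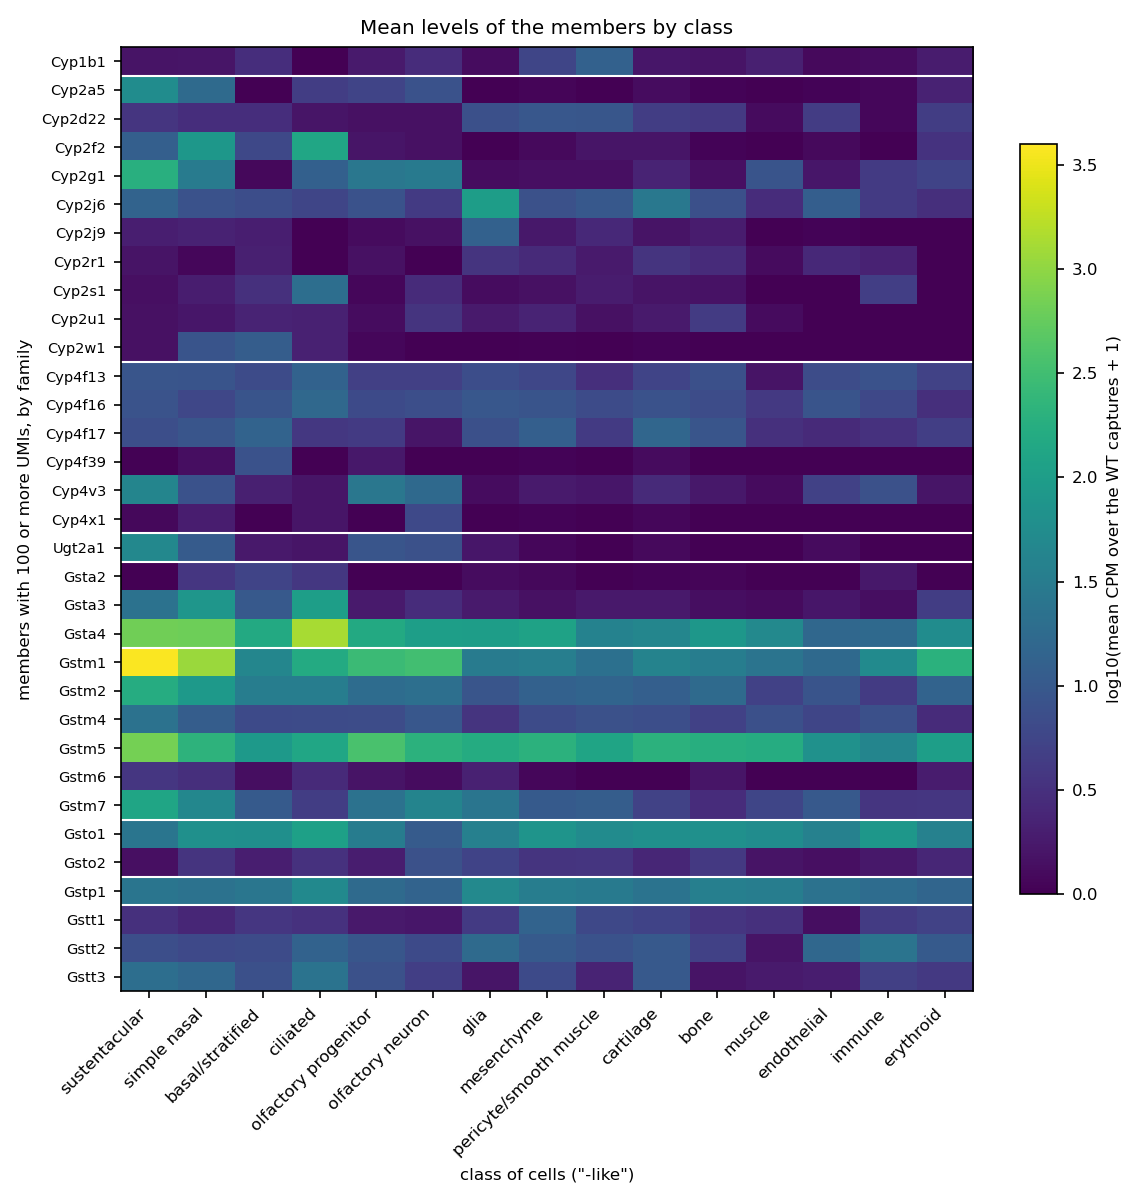
Mean level over the WT captures of the enzyme genes with 100 or more UMIs, by cell class, as log10 of CPM plus 1. Of the columns shown, and leaving aside the ciliated-like one, which is 1 capture, Gstm1 and Gsta4 are strongest in the sustentacular-like and simple nasal columns, Cyp2f2 and Gsta3 in the simple nasal column, Cyp2j6 in the glia-like column.

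Among the transferases, Gstm1 led. Gstm1 codes for a mu-class subunit that conjugates epoxides and aldehydes to glutathione. In the sustentacular-like cells it stood at 5741, 3079, 2246 and 3979 CPM in WT 1, 2, 4 and 5, and at 1964 and 1991 CPM in Prokr2Cre 1 and 2. The simple nasal cells held 1118, 2114, 471.6 and 876.6 CPM, and the basal cells 63.3, 48.0, 37.3 and 28.8. The 3 groups of captures did not overlap: sustentacular-like highest, simple nasal in the middle, basal lowest. With clusters in place of gates the mean basal level was 274.08 CPM in place of 44.35, so the basal level depends on how cells were sorted. Against the mean of the other epithelial classes the log2 fold change was 4.17 ± 0.37, and the mean Gstm1 level of 3761 ± 1498 CPM (SD, n = 4) compares with 5913 ± 1999 CPM for all members together.

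The neighbouring Gstm genes were higher too, by less. Gstm5 stood at 757, 721.9, 686.2 and 611.3 CPM in sustentacular-like cells of WT 1, 2, 4 and 5, with 214.2 ± 71.5 CPM in simple nasal and 88.6 ± 12.2 in basal cells (SD, n = 4). The sustentacular-like values lay close together and above all others. Gstm7 was at 128.5, 135.9, 93.2 and 163.9 CPM in sustentacular-like cells and at 31.1, 80.6, 27.0 and 45.6 in simple nasal cells, again without overlap. Gstm2 was at 331.7, 120.5, 91.9 and 129.9 CPM against 118.7, 111.6, 43.2 and 64.1, and these groups did overlap. The log2 fold changes against the other epithelial classes were 2.64 for Gstm7, 2.34 for Gstm5, 1.57 for Gstm2 and 1.51 for Gstm4, all past the threshold. These 5 genes lie in 1 cluster on chromosome 3 (GRCm38), from Gstm5 at chr3:107895821-107898686 on the plus strand through Gstm7, Gstm2 and Gstm1 (chr3:108012255-108017973, minus strand) to Gstm4 at chr3:108040408-108044894, with Gstm6 and Gstm3 between Gstm7 and Gstm2. Near-identical copies can share reads: 22% of the 60-base words of the last 400 bases of Gstm1 also occur in Gstm3, so a part of the Gstm1 count could belong there.

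Promoters are shown for some members of the sustentacular-like and simple nasal sets, so that the letters searched for can be read in place. They are the 250 bases before the transcription start, 5′ to 3′, from RefSeq on GRCm38.p6, in lower case with motif matches in capitals. Gstm1 (chr3:108017974-108018223, minus strand, the first of 2 listed starts) and Gstm5 (chr3:107895604-107895853, plus strand) lead the sustentacular-like transferases, Cyp2a5 (chr7:26835089-26835338, plus strand) is a sustentacular-like P450, and Gsta3 (chr1:21240335-21240584, plus strand) is a simple nasal transferase. The motifs searched on both strands were the antioxidant response element TGACNNNGC and the core GCGTG of the xenobiotic response element bound by the Ahr receptor.
Gstm1: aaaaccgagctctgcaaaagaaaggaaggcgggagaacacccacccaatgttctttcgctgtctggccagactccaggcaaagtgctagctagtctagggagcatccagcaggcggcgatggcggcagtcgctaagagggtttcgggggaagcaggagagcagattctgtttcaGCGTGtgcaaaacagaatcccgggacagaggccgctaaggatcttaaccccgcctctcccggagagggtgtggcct
Gstm5: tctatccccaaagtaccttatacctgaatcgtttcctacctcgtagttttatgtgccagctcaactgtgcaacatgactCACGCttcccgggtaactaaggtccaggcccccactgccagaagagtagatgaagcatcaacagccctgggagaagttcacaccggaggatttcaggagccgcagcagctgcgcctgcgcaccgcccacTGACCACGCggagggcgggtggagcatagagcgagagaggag
Cyp2a5: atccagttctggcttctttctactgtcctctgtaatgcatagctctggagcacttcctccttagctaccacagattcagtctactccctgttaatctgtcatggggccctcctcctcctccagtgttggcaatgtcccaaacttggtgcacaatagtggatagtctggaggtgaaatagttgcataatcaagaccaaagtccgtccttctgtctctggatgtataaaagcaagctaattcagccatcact
Gsta3: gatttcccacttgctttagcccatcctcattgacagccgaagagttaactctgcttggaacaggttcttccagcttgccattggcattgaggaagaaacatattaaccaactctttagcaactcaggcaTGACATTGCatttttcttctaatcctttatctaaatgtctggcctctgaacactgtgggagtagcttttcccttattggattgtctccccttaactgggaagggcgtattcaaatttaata
Of the 121 members, 103 had a promoter in the table. TGACNNNGC was found in 3 of these (2.91%) against 10.2% of all 27018 promoters, namely Gstm5, Gsta3 and Cyp4f18. GCGTG was found in 20 (19.4%) against 28.2%, with 1 match for Gstm1 and 2 for Gstm5. The window of Cyp2a5 held neither set of letters, nor did those of Gstm2, Gstm7 and Cyp2f2, which are not printed. A match is a string of letters in a window and no more.

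Among the P450 genes higher in the sustentacular-like cells were the neighbours Cyp2g1 and Cyp2a5. Cyp2g1 is known as an olfactory P450 that acts on steroids, and Cyp2a5 oxidises coumarin, nicotine and nasal toxicants. Cyp2g1 (chr7:26808892-26821205) was at 299.6, 147.9, 116.6 and 174.2 CPM in sustentacular-like cells of WT 1, 2, 4 and 5, and at 10.7 and 76.4 CPM in Prokr2Cre 1 and 2. In simple nasal cells it was at 65.8, 40.02, 9.71 and 7.40 CPM, and the 4 basal captures held 1 UMI in all. Every WT sustentacular-like capture lay above every simple nasal one. The log2 fold change against the other epithelial classes was 5.96 ± 0.42.

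Cyp2a5, the next gene along (chr7:26835305-26843548), was less even. It was at 139.9, 28.4, 28.5 and 23.6 CPM in the sustentacular-like cells of the 4 WT captures, with WT 1 far above the others, and at 3.37 CPM in Prokr2Cre 1 and 0 in Prokr2Cre 2, where 3 UMIs would have been 10.4 CPM. The simple nasal cells held 26.1, 38.3, 1.08 and 0 CPM, which overlaps with the sustentacular-like values. Basal cells had no Cyp2a5 UMI in any WT capture. Against a floor of 3 UMIs over the pooled basal cells, Cyp2a5 was at least 215.6-fold higher in sustentacular-like cells (727 UMIs) and at least 89.4-fold higher in simple nasal cells. Without WT 1 the first bound was 64.2-fold, and without WT 2 the other was 34.1-fold. Bounds were computed for gated cells only and not for clusters. The fitted log2 fold change against the mean of the other epithelial classes was 6.35 ± 0.67. The last 400 bases of Cyp2a5 share 38.3% of their words with Cyp2a4, which had 1 UMI in all kept cells.

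The other members of this set were Ugt2a1, Cyp4v3, Gsta4, Cyp2j6 and Gstt3. Ugt2a1, the olfactory glucuronosyltransferase, was at 33.2, 78.9, 16.6 and 59.1 CPM in sustentacular-like cells and at 8.27, 26.4, 0 and 4.93 in simple nasal cells (log2 fold change against the other epithelial classes 4.33). Its 3′ end is fully shared with Ugt2a2, so the 2 genes cannot be told apart by these words. Cyp4v3, a fatty acid hydroxylase, was at 47.1, 40.2, 54.0 and 31.0 CPM in sustentacular-like cells and between 3.97 and 14.2 in simple nasal cells (3.90). Ugt2a1 overlapped between the 2 classes and Cyp4v3 did not. Gsta4, which conjugates the lipid peroxidation product 4-hydroxynonenal, had a log2 fold change of 1.05, Cyp2j6 of 0.98 and Gstt3 of 0.95.

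**Figure D3:**
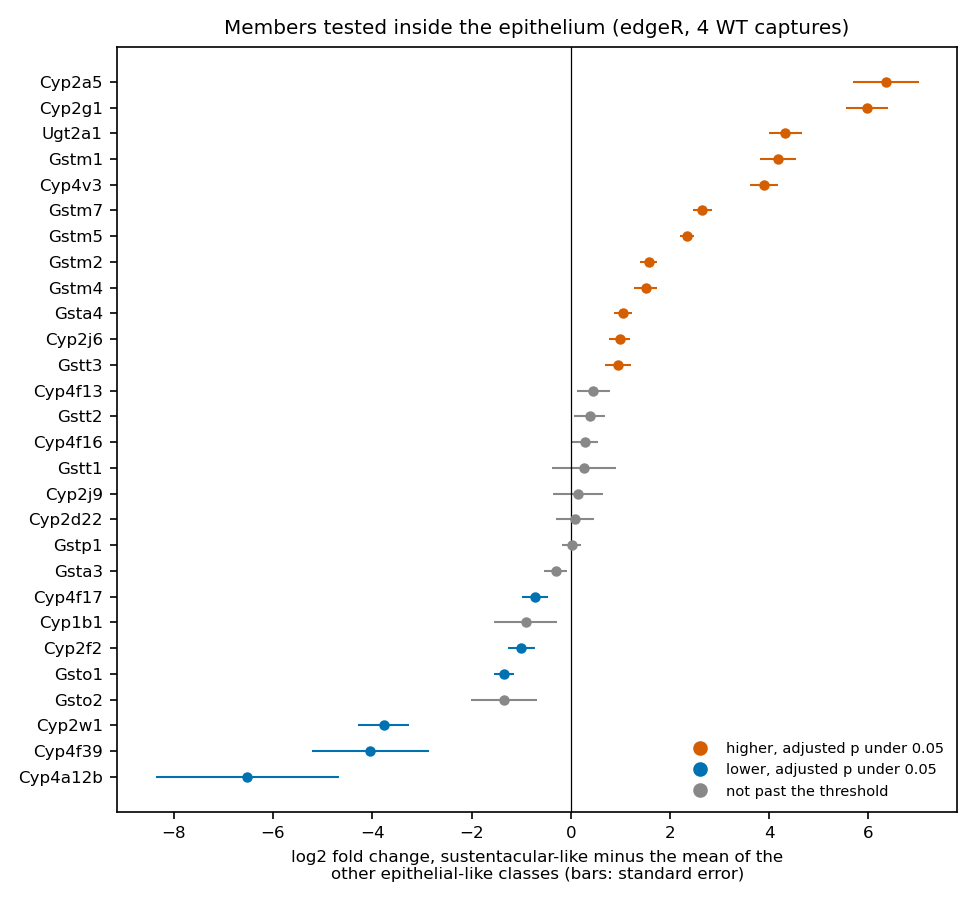
Log2 fold change of the tested enzyme genes in sustentacular-like cells minus the mean of the simple nasal and basal cells over 4 WT captures, with standard error bars; colours mark genes past the threshold. Cyp2g1 lies at 5.96 and Gstm1 at 4.17 on the right, Cyp4f39 at -4.04 on the left.

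Because the mean of 2 unlike classes hides which one differs, sustentacular-like cells were also set against the simple nasal cells alone, a comparison added after seeing the data. Here 10 members were higher (background 6.32%) and 4 lower (background 5.64%). Cyp2g1 differed by a log2 fold change of 2.58, Cyp4v3 by 2.57, Ugt2a1 by 2.25, Gstm1 by 1.87 and Gstm5 by 1.75. Gstm7 (1.54), Gstm4 (1.05), Cyp2j6 (0.95) and Gstm2 (0.93) were also higher. Without WT 2, Gstm4 (1.19, adjusted p = 0.055, edgeR) and Cyp2j6 (0.85, 0.13) did not pass, nor did Cyp2j6 under a stricter gate (0.85, 0.061). Cyp2a5 passed with 1.56 (adjusted p = 0.015, edgeR), but not without WT 1 (1.08, adjusted p = 0.35), WT 4 (1.20, 0.18) or WT 5 (1.34, 0.051), or under that gate (1.23, 0.07). Gsta4 (0.07, adjusted p = 0.93) and Gstt3 (0.35) did not differ past the threshold here and did against the basal cells alone.

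The simple nasal epithelium had its own set. Cyp2f2, the P450 that activates naphthalene in lung and nasal epithelium, was at 211, 31.2, 45.3 and 33.3 CPM in simple nasal cells of WT 1, 2, 4 and 5 and at 30.9, 3.80, 3.40 and 7.38 in sustentacular-like cells. Gsta3, an alpha-class transferase that also isomerises steroids, was at 131.6, 68.1, 39.9 and 66.6 CPM against 34.6, 15.2, 14.04 and 22.1. For both genes the simple nasal captures lay above the sustentacular-like ones without overlap, with WT 1 highest. The log2 fold changes of sustentacular-like against simple nasal cells were -2.98 for Cyp2f2 and -1.82 for Gsta3. Cyp2w1 (-3.53) and Gsto1 (-1.33), an omega-class transferase that reduces dehydroascorbate and arsenic species, completed the 4 that were lower.

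Simple nasal cells against basal cells, also added after seeing the data, gave 13 members higher (background 8.04%) and 2 lower (background 7.22%). Higher were Cyp2a5, Cyp2g1 (6.77), Gstm1 (4.60), Ugt2a1 (4.16), Cyp2f2 (3.98), Gsta3 (3.03), Cyp4v3 (2.64), Gstm7 (2.22), Gsta4 (1.96), Gstm2 (1.27), Gstt3 (1.20), Gstm5 (1.18) and Gstm4 (0.91). Lower were Cyp4f39 (-3.52) and Cyp1b1 (-1.995). Without WT 2, Cyp4v3 (1.87), Gstt3 (1.03), Gstm4 (0.78), Cyp1b1 (-2.12) and Cyp4f39 (-6.67) did not pass, and without WT 5, Gstm4 (0.76) and Cyp1b1 (-1.77) did not. Gstm4 (0.82) did not pass under the stricter gate. Without WT 1 the 2 lower genes fell under the count filter. The comparisons of single epithelial classes were not run with clusters or DESeq2, and 216 gated simple nasal cells fell in basal clusters. With clusters the mean basal level was 220.88 CPM for Gsta4 in place of 155.1, and 134.69 for Gstm5 in place of 88.57. Gsta4 stood at 1004, 545.0, 417.6 and 593.0 CPM in simple nasal cells, 910.8, 690.1, 432.2 and 562.6 in sustentacular-like cells and 238.8, 155.1, 108.0 and 118.8 in basal cells of WT 1, 2, 4 and 5. The first 2 classes overlapped throughout and both lay above the basal cells.

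The basal and stratified cells, which underlie the respiratory and oral linings and carry Krt5 and Trp63, held little of the pool but had 3 P450 genes that the sustentacular-like cells nearly lacked. Cyp4f39, an omega-hydroxylase of very long fatty acids in skin lipid synthesis, was at 0, 12.2, 7.998 and 8.52 CPM in basal cells of WT 1, 2, 4 and 5 and had 1 UMI in all WT sustentacular-like cells. Cyp2w1 was at 3.47, 6.12, 26.7 and 6.39 CPM in basal cells, 3.31, 4.54, 17.3 and 4.93 in simple nasal cells, and 0.557, 0.400, 0.851 and 0 in sustentacular-like cells. Cyp4a12b was at 0, 8.002, 16.0 and 0.533 CPM in basal cells and had no UMI in WT sustentacular-like cells, which makes the pooled basal level at least 17.6-fold higher (at least 4.71-fold without WT 2 and 11.3-fold without WT 4). Its reads may be shared with Cyp4a12a (45% of the 3′ words). WT 1 lacked 2 of the 3 genes and WT 4 had the highest Cyp2w1 and Cyp4a12b, so these basal levels were uneven between captures.

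Against the other epithelial classes the 6 lower members in sustentacular-like cells were Cyp4a12b, Cyp4f39 (-4.04), Cyp2w1 (-3.77), Gsto1 (-1.34), Cyp2f2 (-0.99) and Cyp4f17 (-0.72). Of these, Cyp2f2 did not pass without WT 1 (-0.55) or WT 2 (-1.03), Cyp4f39 without WT 4 (-3.89), and Cyp4f17 without WT 2 (-0.67), WT 4 (-0.62) or WT 5 (-0.77). Without WT 2 the Cyp4f39 test was void. The 76 ciliated-like cells, 69 of them in WT 1, could only be described. In WT 1 these ciliated-like cells held Gsta4 at 1335 CPM, Gstm1 at 158.7, Cyp2f2 at 135.7 and Gsta3 at 102.4, closer in Cyp2f2 and Gsta3 to the simple nasal than to the sustentacular-like cells of that capture. The 12 melanocyte-like cells of WT 2, the only capture with enough of them and named after their values were seen, held Gstm1 at 1761 CPM (367 UMIs).

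**Figure D4:**
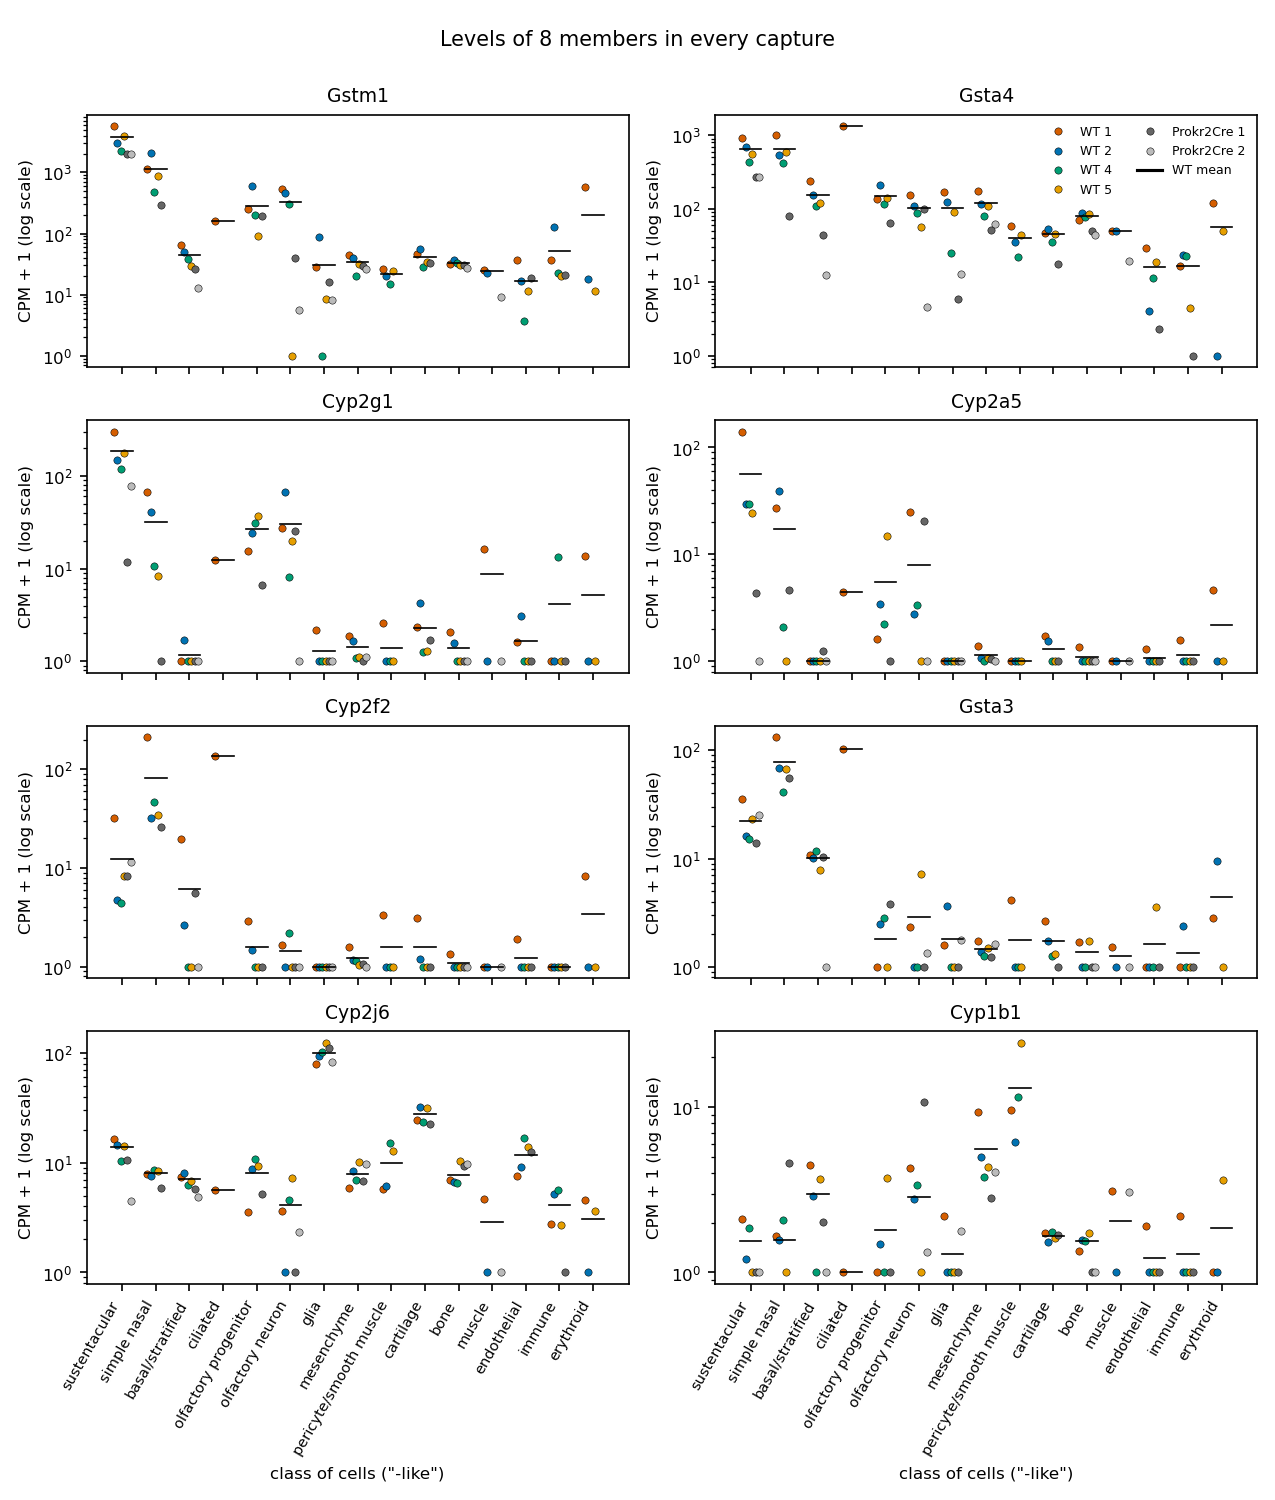
Levels of 8 members by class and library, in CPM plus 1 on a log axis; points are libraries and bars are means of the WT captures. Gstm1 and Cyp2g1 are highest in sustentacular-like cells, Cyp2f2 and Gsta3 in simple nasal cells, Cyp2j6 in glia-like cells, among the classes with 3 WT captures or more.

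Epithelial classes were then compared with all other classes. The median log2 fold change of the 28 tested members was 1.81, beside 0.09 over all genes tested. It includes the void tests of Cyp2a5 and Cyp4a12b. Members could pass the count filter through the epithelial classes alone, so this median does not test a shift of the families. A total of 16 members were higher in epithelium (background 30.4%) and 1 lower (background 16.7%), Gsto2 at -0.93. Among the higher were Cyp2f2 (6.31), Cyp2w1 (6.02), Gsta3 (5.13), Ugt2a1 (5.06), Cyp4f39 (3.57), Gstm1 (3.32), Gstm2 (2.80), Gsta4 (2.67), Cyp2g1 (2.26), Gstm7 (2.14), Gstt3 (2.10) and Cyp2j9 (1.93). DESeq2 gave another order, with Gsta3 at 4.96, Cyp2f2 at 4.74, Cyp2w1 at 3.58, Gstm1 at 3.47 and Ugt2a1 at 3.38. Without WT 1, Cyp2g1 stood at 4.06 and Gstt3 at 3.52, and Cyp2g1 was at 5.29 with clusters and 5.14 under the stricter gate. Without WT 5, Cyp2g1 (2.19) and Gsto2 (-0.89) did not pass. Cyp2g1 also did not with at least 20 cells per sum (2.21) or with the stricter cell filters (2.02). With DESeq2 Cyp4f39 (1.24) and Cyp2j9 (0.69) did not, nor did Cyp2j9 with clusters (1.00). Gsto2 also did not with the highest doublet scores removed (-0.15). Without WT 2 the tests of Cyp2g1, Cyp4f39 and Gsto2 were void, as was that of Cyp2a5 with all captures, because 1 class or more had no UMI of the gene.

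Taken class by class against the mean of all others, sustentacular-like cells had 17 members higher (background 24.9%) and 2 lower (background 12.2%). The higher ones included Cyp2a5 (7.61 ± 0.41), Ugt2a1 (7.39 ± 0.32), Cyp2g1 (6.19 ± 0.25) and Gstm1 (5.80 ± 0.23), and the lower ones were Gsto1 (-1.00) and Gsto2 (-1.75, void without WT 2). Simple nasal cells had 16 higher (background 20.8%), led by Cyp2f2 (7.84 ± 0.23), Cyp2w1 (6.19) and Gsta3 (6.08). DESeq2 gave another order there, with Cyp2f2 at 6.62, Gsta3 at 5.92, Cyp2a5 at 4.28 and Cyp2w1 at 4.17. No member was lower in simple nasal cells by edgeR or DESeq2, and 2 had an unadjusted p under 0.05 in that direction. Basal cells had 12 higher (background 22.2%), led by Cyp2w1 (6.70 ± 0.46), Cyp4a12b (6.64 ± 1.01) and Cyp4f39 (6.37 ± 0.67). With DESeq2, Cyp4a12b (4.90), Cyp4f39 (4.43), Cyp2j9 (0.61) and Cyp1b1 (1.04) did not pass, nor did the lower call of Gstm1 (-1.01). Without WT 1, Cyp2f2 (3.55, then 2.56) and Gsto1 (0.46, then 0.34) did not. Gsto1 also failed without WT 5 (0.43), Cyp2j9 (1.65, then 1.44) and Cyp1b1 (1.14, then 1.09) without WT 2, and Gstt3 (0.79) without WT 2 (0.78), WT 4 (0.66) or WT 5 (0.75). Cyp2w1 in sustentacular-like cells (2.39) did not pass with DESeq2 (0.30), without WT 1 (2.08) or without WT 2 (2.30). The basal cells had 4 lower members (background 11.2%), Cyp2g1 (-3.88), Cyp4v3 (-1.38), Gstm1 (-1.17) and Gstm5 (-0.97), of which Cyp4v3 did not pass without WT 2 (-1.43) or WT 4 (-1.28), nor Gstm1 without WT 2 (-1.14). Without WT 1 the tests of Cyp2g1 and Cyp4v3 were void, as was that of Cyp2g1 without WT 4, and without WT 2 Cyp2g1 stood at -7.18. With clusters in place of gates the basal cells went the opposite way for Cyp2g1 (2.22, adjusted p = 0.00539, edgeR) and Gstm1 (1.60, adjusted p = 0.000471, edgeR), both past the threshold, and Cyp4v3 (-0.47) and Gstm5 (-0.39) did not pass, so the lower basal calls depend on how the cells were sorted.

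The share of single cells with a UMI gave the same order. Gstm1 was found in 87.8% of WT sustentacular-like cells, 67.7% of simple nasal cells and 29.4% of endothelial-like cells, used as the comparison for free RNA, at median depths of 10520, 9110 and 15110 UMIs. With each cell thinned to 2000 UMIs, which left out 22, 29 and 8 shallower cells, the shares were 74.5%, 50.5% and 4.43%. Cyp2g1 was found in 42.6%, 12.6% and 1.42% of the same 3 classes, and in 23.8%, 7.36% and 0 after thinning. Cyp2f2 had the opposite order inside the epithelium, 7.86% of sustentacular-like and 31.7% of simple nasal cells, or 2.53% and 13.8% after thinning. Gsta4 was found in 95.1% of sustentacular-like, 90.0% of simple nasal, 43.7% of mesenchyme-like and 21.8% of endothelial-like cells, the mesenchyme-like cells at a median of 6248 UMIs. After thinning these shares were 68.7%, 61.7%, 19.2% and 2.96%. Barcodes with fewer than 500 genes, which may be empty droplets or poor cells, held Gstm1 at 128.6 to 227.2 CPM and Cyp2g1 at 9.22 to 25.8 CPM in the WT captures. Shares at or below the endothelial-like share are not read as expression. Whether the UMIs in endothelial-like cells are free RNA was not tested.

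Olfactory neuron-like and progenitor-like cells held several genes of the sustentacular-like set at lower levels, and a stricter gate changed several of these values. Neuron-like cells held Gstm1 at 525.9, 457.9, 301.0 and 0 CPM in WT 1, 2, 4 and 5, the last with 3 UMIs worth 18.7 CPM. They had 7 members higher than the mean log level of the other classes (background 30%) and 5 lower (background 22.7%). The higher ones were Cyp2a5 (4.60), Ugt2a1 (4.43), Cyp2g1 (3.05), Cyp4v3 (2.69), Gsto2 (2.02), Gstm1 (1.91) and Gstm7 (1.88), and the lower ones Cyp4f17 (-2.51), Gsto1 (-2.06), Cyp2d22, Cyp2j6 and Gstp1. Without WT 1, Cyp2a5 (3.51) and Gstp1 (-0.83) did not pass, with DESeq2 Cyp2a5 (2.83) and Cyp2d22 (-1.63) did not, and Cyp2d22 did not without WT 2 (-1.68), WT 4 (-2.38) or WT 5 (-1.77). In WT 1, 140 of the 149 neuron-like cells held a UMI of an epithelial keratin or junction gene. With cells holding markers of another class removed, the mean Gstm1 level was 12.7 CPM in place of 321.2 and that of Cyp2g1 0.83 in place of 29.6.

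Under that stricter gate, with 221 WT cells, no UMI of Cyp2a5 or Ugt2a1 was left. Gstm1 (24 UMIs) stood at -1.77 on the log2 scale, past the threshold in the opposite direction (adjusted p = 0.000293, edgeR). Cyp2g1 (0.56) did not pass. Cyp4v3 (3.12, adjusted p = 0.0011, edgeR) and Gstm7 (2.07, adjusted p = 1.7e-06, edgeR) were still higher. Of the lower members, Cyp4f17 (-0.14) did not pass under that gate, Gsto1 (-2.20) and Gstp1 (-1.62) did, and Cyp2j6 was void. Removing the cells with the highest doublet scores gave Gstm1 at -0.25. The progenitor-like cells had 9 higher members (background 27.5%), with Ugt2a1 at 4.58, Cyp4v3 at 3.33, Cyp2g1 at 3.04 and Cyp2a5 at 2.71. Cyp2a5 did not pass without WT 2 (2.37), WT 4 (2.59) or WT 5 (1.96), and with clusters in place of gates Cyp2g1 stood at 0.018. Under the stricter gate, with 85 cells, Cyp2g1 was the only call (4.94, adjusted p = 8.77e-05, edgeR). There Ugt2a1 (3.89), Cyp4v3 (2.84) and Gstm7 (1.10, 1.01 before) did not pass at folds of similar size, Gstm1 stood at -0.33 and no UMI of Cyp2a5 was left. With all progenitor-like cells, 3 members were lower (background 16.5%), Cyp2d22 (-2.01), Gstp1 (-0.71) and Gsto1 (-0.68). Their mean Gstm1 level was 285.3 CPM, and 53.8 under that gate. The part that doublets, free RNA or cells in transition play in these values was not tested.

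Glia-like cells, the ensheathing and Schwann lineage of the nose, stood apart through the Cyp2j genes, whose products epoxidise arachidonic acid. Cyp2j6 was at 78.3, 93.2, 102.0 and 123.7 CPM in WT 1, 2, 4 and 5 and at 109.7 and 82.2 in Prokr2Cre 1 and 2. The next class, the cartilage-like cells, held 23.7, 31.1, 22.5 and 30.8 CPM, so no glia-like capture came near them. The log2 fold change against the mean of other classes was 3.78 ± 0.15 (adjusted p = 9.9e-26, edgeR). Cyp2j9 was at 15.5, 10.7, 2.68 and 20.2 CPM in glia-like cells (5.20 ± 0.44). In all, 6 members were higher in glia-like cells (background 12.7%), with Cyp2d22 (1.65), Gstt2 (1.30), Gstm7 (1.07) and Gstp1 (1.00) besides these. Gstt2 did not pass without WT 1 (0.78). Lower were 3 members (background 7.87%), Gstt3 (-2.08), Gstm1 (-1.78) and Gstm2 (-1.19). Gstm1 did not pass without WT 1 (-1.23) or WT 4 (-1.61), and the test of Gstt3 was void without WT 1.

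Mesenchyme-like cells had 10 higher members (background 35.2%), a share close to that of all genes. Leading were the theta-class Gstt1 (2.51 ± 0.32, and 3.92 without WT 1), Cyp2d22 (2.23 ± 0.20) and Cyp1b1 (2.23 ± 0.25). The Gsta4 call (0.46) was lost whichever capture was left out (0.31 to 0.46). With DESeq2, Gsta4 (0.33), Gstt3 (0.48), Gstp1 (0.33) and Gstm5 (0.21) did not pass. Cyp4f16 (0.47) did not pass without WT 1 (0.28), WT 2 (0.26) or WT 4 (0.46), Gstm5 (0.36) without WT 1 (0.18), WT 2 (0.28) or WT 5 (0.34), Gstt3 (0.62) without WT 2 (0.35) or WT 5 (0.50), and Gstp1 (0.47) without WT 1 (0.34). Lower were 5 (background 7.85%), Cyp2g1 (-3.05), Cyp4v3 (-1.84), Gsta3 (-1.60), Gstm1 (-1.50) and Gstm2 (-0.41). Gstm2 did not pass without WT 2 (-0.51), WT 4 (-0.42) or WT 5 (-0.42). The test of Cyp2g1 was void without WT 1, WT 2 or WT 4, that of Gsta3 without WT 1, WT 2 or WT 5, and that of Cyp4v3 without WT 1. Under the stricter gate Cyp4v3 (-0.64) and Gsta3 (-0.37) did not pass, and the test of Cyp2g1 was void. Gstt1 was at 8.98, 15.8, 11.1 and 15.7 CPM, and Cyp2d22 at 9.36, 7.06, 8.01 and 9.48. Cyp1b1, a P450 of retinoid and oestrogen metabolism, was at 8.36, 3.98, 2.79 and 3.37 CPM in mesenchyme-like cells and at 8.64, 5.19, 10.6 and 23.6 CPM in pericyte and smooth muscle-like cells of WT 1, 2, 4 and 5. The 2 classes overlapped across captures, and within each capture the pericyte-like value was the higher one. The pericyte-like cells had 2 higher members (background 12.3%), Cyp1b1 (3.25 ± 0.45) and Cyp2d22 (1.41), and Cyp2d22 did not pass without WT 2 (1.52) or WT 5 (0.47). They had 3 lower (background 8.59%), Gstm1 (-2.58), Gsta4 (-1.40) and Gstm5 (-0.59), the last of which did not pass without WT 1 (-0.41), WT 2 (-0.57) or WT 4 (-0.48).

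Inside the mesenchyme, Cyp1b1 was uneven. Cells with UMIs of both Aldh1a2 (which makes retinoic acid) and Cldn11 (a tight junction gene) held Cyp1b1 at 38.8, 20.3, 18.4 and 14.1 CPM in WT 1, 2, 4 and 5, and at 27.1 and 32.5 in Prokr2Cre 1 and 2. Cells with both Twist2 and Dpt, genes of dermal fibroblasts, held 1.72, 0, 0 and 1.38 CPM. Every WT capture of the first pair lay above every WT capture of the other pairs: the Shox2 and Barx1 pair stood at 6.84 ± 3.36, Pax9 and Mecom at 6.19 ± 0.40, Foxp2 and Erg at 6.04 ± 1.86, and Osr1 and Mab21l2 at 3.28 ± 1.73 CPM. The pairs were chosen with earlier results of these data known, and no test was made between them.

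**Figure D5:**
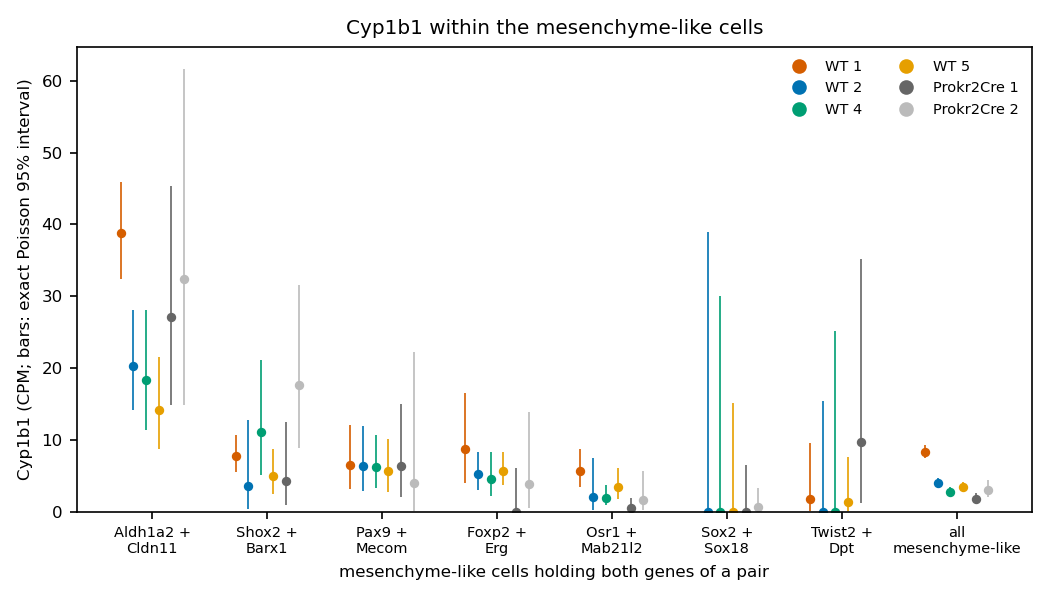
Cyp1b1 level in mesenchyme-like cells that hold UMIs of both genes of a marker pair, in CPM; points are libraries and bars are exact Poisson 95% intervals, which cover counting error only. The Aldh1a2 and Cldn11 pair lies between 14.1 and 38.8 CPM in WT, and the Twist2 and Dpt pair between 0 and 1.72.

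Cartilage-like cells had 6 higher members (background 29.9%): Cyp2j6 (1.96 ± 0.14), Cyp4f17 (1.76 ± 0.19), Gstt3 (1.59), Cyp2d22 (0.93), Gsto1 (0.52) and Gstm5 (0.41). Cyp2d22 did not pass without WT 2 (0.79), Gsto1 without WT 4 (0.32) or WT 5 (0.41), nor Gstm5 without WT 2 (0.36) or WT 5 (0.33). Lower there were 4 (background 11.8%), Gstm7 (-1.54), Gstm1 (-1.17), Cyp4v3 (-1.03) and Gsta4 (-0.95), where Cyp4v3 did not pass without WT 1 (-0.10) or WT 2 (-1.13). Bone-like cells had 3 higher (background 20.1%), Cyp4f17 (0.83), Gstp1 (0.67) and Gsto1 (0.62), of which Cyp4f17 did not pass without WT 4 (0.56) or WT 5 (0.70). They had 5 lower (background 10.4%), Cyp2g1 (-2.77), Gstm7 (-2.70), Gstt3 (-2.39), Cyp4v3 (-2.10) and Gstm1 (-1.45). Without WT 1, Gstm1 (-1.15) did not pass and the tests of Gstt3 and Cyp4v3 were void. The Cyp2g1 call was lost whichever capture was left out: the test was void without WT 1, WT 2 or WT 4 and did not pass without WT 5 (-2.66). Cyp4f17 was lower in WT 1 than in the other captures in both cartilage-like (2.20, 18.3, 14.04 and 23.4 CPM) and mesenchyme-like cells (2.83, 13.5, 12.01 and 17.4). Muscle-like cells had no higher member by edgeR or DESeq2 (background 9.23%), with 1 at an unadjusted p under 0.05. They had 4 lower (background 5.38%), Gstt2 (-3.38), Gstm1 (-2.40), Gstm2 (-1.62) and Gsta4 (-1.18), and could not be fitted without WT 1 or without WT 2.

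Immune-like cells had 4 higher members (background 23.2%) and 6 lower (background 21.8%). The higher ones were Gstt2 (1.79 ± 0.28), Cyp4v3 (1.28), Gsto1 (0.98 ± 0.17) and Cyp4f13 (0.98), where Cyp4v3 did not pass without WT 5 (0.53) nor Cyp4f13 without WT 1 (0.054). Gsto1 was at 90.5, 69.1, 65.3 and 90.9 CPM, against 19.5, 29.6, 24.3 and 23.6 in sustentacular-like cells, without overlap. The lower ones were Cyp2d22 (-2.86), Gsta4 (-2.63), Gstm2 (-2.58), Gstm5 (-2.10), Gstm7 (-2.02) and Cyp2j6 (-1.47). Endothelial-like cells had 2 higher members (background 20.8%), Gstt2 (1.51 ± 0.26) and Cyp2d22 (1.14). They had 6 lower (background 16.3%), Gsta3 (-3.09), Gsta4 (-2.52), Gstm1 (-2.26), Gstt3 (-1.35), Gstm5 (-1.30) and Gstm2 (-1.29). Without WT 1, Gstm2 (-1.08) and Gstt2 (0.38) no longer passed in these cells and the tests of Gsta3 and Gstt3 were void. Without WT 2, Cyp2d22 (0.86) no longer passed and that of Gsta3 was void. Erythroid-like cells, in 3 captures, had Cyp2f2 (3.19) and Gstm1 (2.06) higher (background 4.72%), and without WT 1 Gstm1 changed sign (-1.89) and the test of Cyp2f2 was void. Cyp2f2 also did not pass without WT 2 (2.95) or WT 5 (3.37), with DESeq2 (2.36) or with the highest doublet scores removed (1.96), and had no UMI in the 51 cells of the stricter gate. No member was lower there by edgeR or DESeq2, or at an unadjusted p under 0.05.

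In the Prokr2Cre libraries 2 members are described, chosen after their values were seen. Gsta2, an alpha-class transferase, had no UMI in the 853 WT sustentacular-like cells and was at 4.63, 2.84, 1.08 and 2.47 CPM in simple nasal cells and at 7.80, 4.24, 1.33 and 4.26 CPM in basal cells of WT 1, 2, 4 and 5. In Prokr2Cre 2 it was at 52.1 CPM in sustentacular-like cells, 15 UMIs over the 12 cells of the class, while Prokr2Cre 1 had 0.56 CPM. Mesenchyme-like cells of Prokr2Cre 2 held 13.2 CPM (125 UMIs in 745 cells, exact Poisson 95% interval 11.0 to 15.7, counting error only), beside 0 in Prokr2Cre 1 and at most 0.382 in WT. With 1 library there is no test. The last 400 bases of Gsta2 share 54% of their words with other genes, Gsta1 among them. Cyp4x1, a P450 of the fatty acid hydroxylase family, had 120 UMIs, 39 of them in WT. In neuron-like cells it was at 1.98, 5.37, 1.19 and 12.4 CPM in WT 1, 2, 4 and 5 (3, 3, 1 and 2 UMIs), at 0 in Prokr2Cre 1 and at 16.2 CPM (49 UMIs) in Prokr2Cre 2.

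Genes that work beside these enzymes came from lists of the pathway. Of 8 genes in the list of P450 partners, 4 were higher and none lower in sustentacular-like cells than in the other epithelial classes. The background was 12.1% higher and 8.86% lower, also for the lists that follow. Among the 4 were Por (1.96), Blvrb (1.86) and Cyb5a (0.68). The list also holds enzymes of haem breakdown, such as Blvrb and Hmox1, which are not themselves partners of P450 enzymes. Por stood at 149.6 ± 63.9 CPM in sustentacular-like, 50.6 ± 22.9 in simple nasal and 28.2 ± 4.8 in basal cells. Of 14 other oxidation and hydrolysis enzymes tested, 5 were higher, with the aldehyde oxidase Aox2 (3.71) and the carboxylesterase Ces1d (3.01), and 2 lower, with the carbonyl reductase Cbr3 (-3.14). Of 14 other conjugation enzymes, 4 were higher, the sulfotransferases Sult1e1 (4.00), Sult1b1 (3.61) and Sult1c1 (3.42) among them, and 2 lower.

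Of 10 genes of cofactor supply, 4 were higher and 1 lower, with Papss2 (2.58), which makes the sulfate donor, Ugdh (1.60), which makes UDP-glucuronic acid, and the thioredoxin reductase Txnrd1 (1.36). Of 7 export pumps tested, 1 was higher, Abcc4 (0.95). Of 7 receptors and regulators tested, none was higher and 2 were lower, Rxra (-2.30) and the dioxin receptor Ahr (-1.71). Ahr stood at 13.5 ± 4.0 CPM in sustentacular-like and 43.0 ± 10.9 in simple nasal cells.

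Between epithelial and all other classes (background 30.4% higher and 16.7% lower), the conjugation list had 8 higher and 1 lower of 14, with Sult1c1 (4.86), Sult1d1 (4.43) and Sult1b1 (4.09). Cofactor supply had 8 higher and 0 lower of 10, with Slc7a11 (1.44), Gclc (1.10) and Gsr (0.78), genes of cystine uptake and of glutathione synthesis and reduction. Slc7a11 was not above every other class. It stood at 3.56 CPM in sustentacular-like, 2.65 in simple nasal and 5.08 in basal cells, beside 4.23 in mesenchyme-like cells. No pathway gene was refitted under an alternative or without a capture. Oxidation and hydrolysis had 7 higher and 2 lower of 14, with Cbr2 (5.59), Aldh1a7 (5.10) and Aox2 (5.07). The list of P450 partners had 4 higher and 3 lower of 8, the regulators 2 and 1 of 7, and the pumps 3 and 3 of 7. Among the pumps Abcc4 (3.07) and Abcc3 (2.44) were higher and Abcg2 (-2.36) lower.

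Many P450 and glucuronosyltransferase genes had no count. No UMI in any kept cell was seen for 13 of 49 Cyp2 genes, 5 of 9 Cyp3 genes, 6 of 21 Cyp4 genes, 2 of 9 Ugt1 genes and 1 of 10 Ugt2 genes. These included the drug-metabolising Cyp3a11. The Ugt1 genes share 65.3% to 100% of the words of their 3′ ends with each other, so a 0 or a low count for a single one, such as the bilirubin transferase Ugt1a1, cannot be put down to depth. No Cyp1 or Gst gene was at 0. A further group had 1 or 2 UMIs, which brings the number under 3 UMIs to 49.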

How the data were processed

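Single-cell RNA libraries were deposited as matrices of raw counts, whole numbers of UMIs per gene and barcode. Per the file headers they came from Cell Ranger 6.0.1 (WT 1), 7.0.0 (the other WT libraries) and 6.1.2 (Prokr2Cre). Per the submitters' processing notes, Cell Ranger 4, Seurat 4.3.0 and mm10 were used. The annotation and the intron setting are not given in the sources used here. Members and lists were chosen with earlier results of these data known.

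Cells were gated by markers (at least 3 of a class, epithelial classes with at least 2 of Epcam, Krt8, Krt18, Cldn3 and Cdh1; best mean score). The thresholds, the step that parts sustentacular-like from simple nasal cells and the removal of 124 Rax- or Six6-positive cells were set after seeing the data. UMIs were summed per capture and class with at least 10 cells and tested with edgeR 4.0.16 in R 4.3.3 in 1 fit over 14 classes, with the capture as a block; genes used as markers were not tested. Classes of a capture share its cells' handling: their deviations correlated at a median of 0.30 within a capture and -0.12 between captures. On simulated counts for sustentacular-like against other epithelial-like cells (12660 genes), 82.2% of 90 genes changed 2-fold and 100% of 95 changed 4-fold were called, with 14 of 12475 unchanged genes. The simulated counts held no other difference between classes. No gene was made absent from a class, so these rates do not cover such genes.

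Named genes were the 5 members with the highest mean in each class at 20 CPM or more, and the called members with the 12 largest positive and 8 largest negative changes in each comparison. Alternatives were DESeq2 1.42.0, no block, no low-count filter, stricter cell filters (1000 genes, 5% mitochondrial), 20 cells per sum, clusters named from the same markers (scanpy 1.11.5), a stricter gate, removal of the highest doublet scores at 0.8% per 1000 barcodes, WT 3 in place of WT 4, and leaving out each capture. The doublet caller's own threshold marked almost no cell, so no cell was removed in the main analysis beyond the gate. Coordinates are from GENCODE vM21 and promoters from RefSeq, both GRCm38. Floors are 3 UMIs and intervals are 95%.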

Additional observations from a re-analysis of the deposited data

Results flagged for a closer look

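In 5 of 57 levels of named members in a class, 1 WT capture lay far from the other 3 by Dixon's criterion, where chance alone flags about 1 in 20 groups. Gstm2 in sustentacular-like cells was highest in WT 1, at 331.7 CPM, with the others between 91.9 and 129.9. Cyp2f2 in simple nasal epithelium-like cells was also highest in WT 1, at 211 CPM beside 31.2 to 45.3. Gsto1 in cartilage-like cells was lowest in WT 1, at 38.34 CPM beside 65.66 to 70.73. Gstm1 in immune-like cells was highest in WT 2, at 126.9 CPM beside 18.9 to 36.3. Gsto1 in olfactory progenitor-like cells was lowest in WT 4, at 23.16 CPM beside 33.05 to 34.13. WT 1 is the capture in 3 of the 5, and it differs from the other WT captures in the software version of its header.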

How the results depend on the processing

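The 12 members higher in sustentacular-like cells than in the other epithelial classes passed under every alternative fit except the fit with no replicate block, where 10 did. Leaving out 1 capture gave 14 to 17 called members in either direction for that comparison (18 with all captures), 15 to 17 for epithelium against the rest (17) and 12 to 13 for sustentacular-like against simple nasal cells (14).

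With no replicate block, called members went from 14 to 7 for sustentacular-like against simple nasal cells, from 16 to 10 in basal, 8 to 3 in bone-like, 10 to 5 in cartilage-like, 8 to 5 in endothelial-like, 2 to 1 in erythroid-like, 15 to 8 in mesenchyme-like, 4 to 0 in muscle-like and 5 to 2 in pericyte-like cells, and from 146 to 97 over all classes. The stricter gate gave 4 in endothelial-like, 0 in erythroid-like, 9 in mesenchyme-like, 1 in progenitor-like (12 in the main analysis) and 2 in pericyte-like cells. Named clusters gave 9 in mesenchyme-like cells. With no filter on low counts immune-like cells had 17 (10) and simple nasal cells 25 (16). Erythroid-like cells had 1 with no filter, with DESeq2, with at least 1000 genes per cell, with doublet scores removed and with WT 3 for WT 4. Leaving out 1 capture gave 8 to 14 in basal, 5 to 7 in bone-like, 3 to 9 in endothelial-like, 1 to 2 in erythroid-like, 4 to 10 in glia-like (9), 6 to 11 in mesenchyme-like and 3 to 5 in pericyte-like cells, and 96 to 133 over all classes.

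Signs changed for these single log2 fold changes against the other classes. With clusters these were Cyp2g1 (2.22) and Gstm1 (1.60) in basal cells, and Cyp2a5 (-0.24), Gstm1 (-0.53) and Gsta4 (-0.15) in progenitor-like cells. Under the stricter gate they were Gstm1 in basal (0.12), neuron-like (-1.77), progenitor-like (-0.33) and erythroid-like cells (-1.35), Cyp4v3 in cartilage-like (0.24), Gstm2 in mesenchyme-like (0.33) and Gstt3 in progenitor-like cells (-0.031). Leaving out 1 capture moved Gstm1 in erythroid-like cells between -1.89 (without WT 1) and 2.51, and with doublet scores removed Gstm1 in neuron-like cells stood at -0.25. Another 51 single values could not be tested because a class had no UMI left, and some of the lower counts above come from such members. Apart from having fewer cells or captures, the causes were not tested. The pooled count of UMIs limits members under 3 UMIs, for which no direction can be given.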
